A study of Mus musculus with 3 samples.

Results

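The collagen genes of mouse back skin were examined by structural class in 3 microarrays, one for each group of mice. All probe sets whose platform symbol is Col, a number, a and a number were taken, which gave 82 of 45101 probe sets and 42 of 18193 genes. A probe set is a group of short probes on the array that read 1 transcript. The 3 groups were wild-type C57BL/6J mice on an AIN-93-based diet (WT), interleukin-10 knockout mice on that diet (KO), and interleukin-10 knockout mice on the diet with 8% powdered eggshell membrane, pESM (KOE). All mice were male, were 4 weeks old when the diets began and were fed for 28 weeks. The KO and KOE mice were homozygous males of the second generation from a B6.129P2-IL-10<tm1Cgn>/J cross, and the WT mice were not littermates of them, so the line and the knockout cannot be told apart. Interleukin-10 is an anti-inflammatory cytokine, and mice without it are a model of inflammatory bowel disease. There were 5 mice in the WT group, 7 in KO and 6 in KOE. The RNA of each group was pooled for 1 array, so that no array difference below has a replicate check, an error or a test. The dermal white adipose tissue had been removed from the skin before extraction.

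Collagens are secreted or membrane proteins in which 3 chains wind into a triple helix. The fibrillar collagens, types I, III and V above all, build the fibrils that carry tension in the dermis, and fibroblasts make most of them. The fibril-associated collagens with interrupted helices (FACIT) sit on fibril surfaces, type IV forms the network of basement membranes, and type VI forms beaded microfilaments around cells. The transmembrane collagens stay in the plasma membrane, among them type XVII of the hemidesmosomes that fix basal keratinocytes to the basement membrane.

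Signals are the authors' linear intensities, scaled so that each array has a trimmed mean of 500, and each gene is given by its strongest probe set. Where 3 signals stand without array names they are those of WT, KO and KOE, in that order. A difference past the cut-off means that 1 array was 1.5-fold or more above the other and that the stronger of the pair had a signal of 40 or more. Of the 42 collagen genes, 34 reached 40 in at least 1 array, and 30 reached it in all 3. The classes with measured genes were fibrillar (10 of 11), FACIT (7 of 9), type IV of the basement membrane (6 of 6), type VI (3 of 5), transmembrane (3 of 4), multiplexin (2 of 2), anchoring fibril (1 of 1) and short-chain network (2 of 3). Over all genes the arrays differed in their middle, and the median probe set had a signal of 116.0 (WT), 96.3 (KO) and 108 (KOE). Scaling the arrays to a common median moved the median log2 fold change of all genes from 0.01 to 0.29 for KO against WT and from 0.02 to -0.14 for KOE against KO. The probe set for Il10 read 17.0, 679.9 and 401 in the WT, KO and KOE arrays, so it does not check the knockout, and which part of the altered locus it reads was not tested. Markers of the tissue were present, as all 14 dermal fibroblast and all 9 basal keratinocyte markers with a probe set reached 40 in every array.

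Most collagen genes were lowest in the KO array. Among the 34 measured genes the lowest signal was in KO for 24, in WT for 10 and in KOE for 0, whereas over all 15010 measured genes the lowest array was KO for 33.3%, WT for 41.5% and KOE for 25.2%. KO was lowest for 20 to 23 of the 34 under the other scalings, and Col12a1 was lowest in KOE with a common median. The highest signal was in WT for 17 genes, in KOE for 14 and in KO for 3, beside 34.9%, 33.7% and 31.4% of all genes. Col7a1, Col19a1 and Col23a1 were the 3 genes highest in KO.

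**Figure D1:**
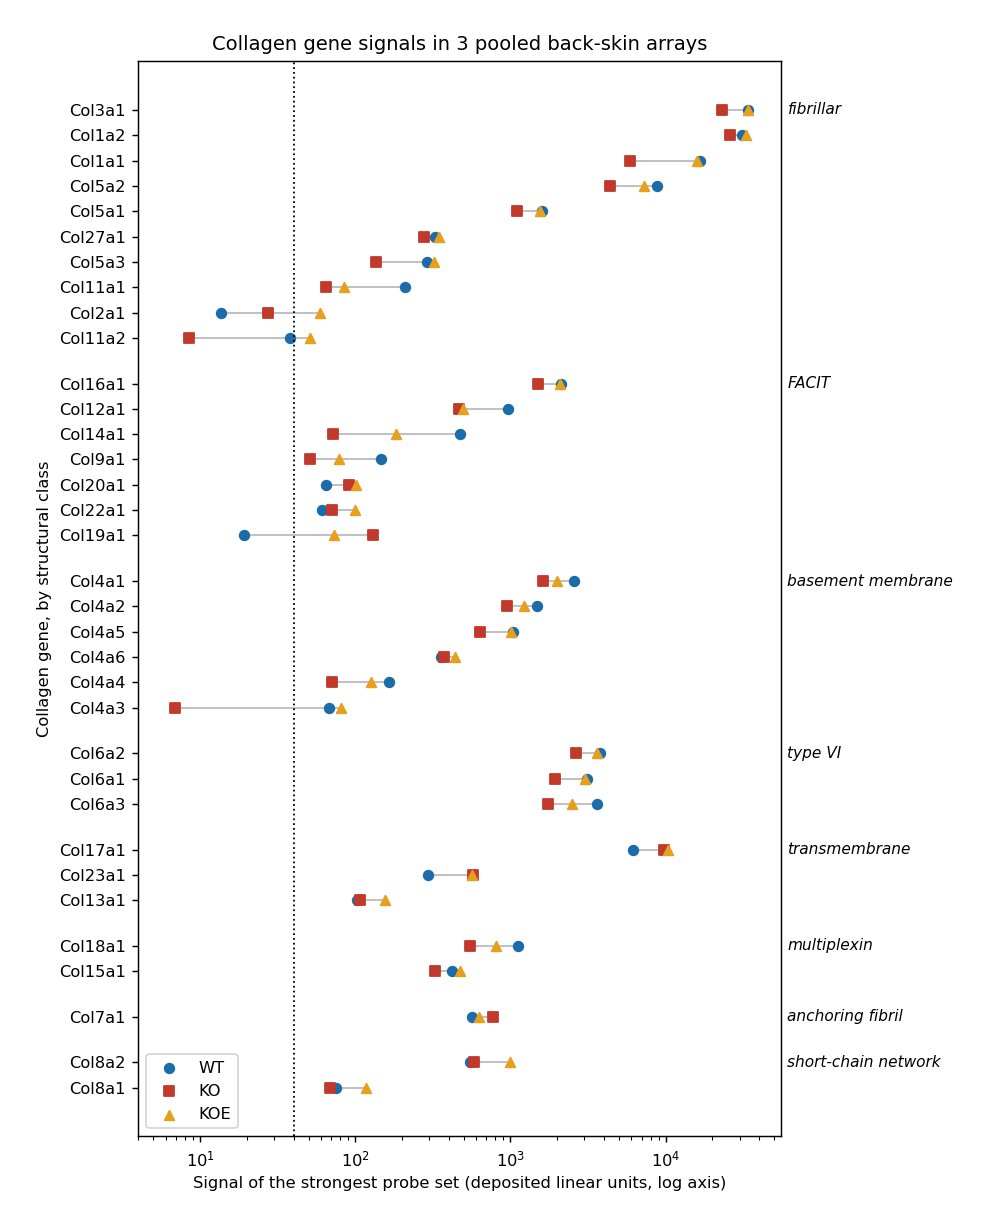
Signal of the strongest probe set of each of the 34 measured collagen genes (rows, by structural class) on a log axis in the WT, KO and KOE arrays, 1 array per group, with the signal limit of 40 as a dotted line. The KO squares lie at the left end for 24 genes, whereas for Col17a1 and Col23a1 the WT circle does.

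In KO against WT, 15 of the 34 genes were lower past the cut-off, against 14.0% of all measured genes. Only 3 were higher, against 10.5% of all. The median log2 fold change of the collagen genes was -0.55, against 0.01 over all genes. With the arrays scaled to a common median, 11 genes were lower and 6 higher, with a median of -0.27 beside an all-gene median of 0.29. The genes that stayed lower past the cut-off under each of the 3 other scalings were Col1a1, Col5a2, Col5a3, Col11a1, Col4a3, Col4a4, Col6a3, Col9a1, Col12a1, Col14a1 and Col18a1. With 40 required in both arrays, 14 of 30 genes were lower and 2 higher. Col4a3, under 40 in KO, and Col19a1, under 40 in WT, lost their calls there.

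In KOE against KO, 13 genes passed the cut-off upwards, beside 10.6% of all measured genes, and 1 was lower, against 5.18%. Their median log2 fold change was 0.53, against 0.02 over all genes. Both comparisons use the KO array, so a low signal there enters both with opposite signs and the second set is not a separate observation. With a common median, 9 genes were higher and 2 lower, with a median of 0.37. Col1a1, Col2a1, Col5a3, Col11a2, Col4a3, Col4a4, Col14a1 and Col8a2 stayed higher under each other scaling. Of these, Col2a1 and Col11a2 reached 40 in KOE alone, so they count as measured only through the array where they are high. Both lost the call with 40 required in both arrays and with a floor of 40. Col4a3, which was under 40 in KO, also lost it with 40 required in both arrays. With 40 required in both arrays, 10 of 31 genes were higher.

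KOE against WT, which leaves the KO array out, gave a median of 0.05 that lay on either side of 0 under other settings. The genes higher past the cut-off numbered 9, against 12.2% of all, and those lower numbered 4, against 10.3% of all. The lower genes were Col11a1 and the FACIT genes Col9a1, Col12a1 and Col14a1. The higher genes were Col2a1, Col19a1, Col20a1, Col22a1, Col13a1, Col17a1, Col23a1, Col8a1 and Col8a2. Of these, Col2a1 reached 40 in KOE alone and Col19a1 was under 40 in WT, so both passed only through arrays where they are high. With 40 required in both arrays they lost the call, and 7 of 31 genes were higher and 4 lower.

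**Figure D2:**
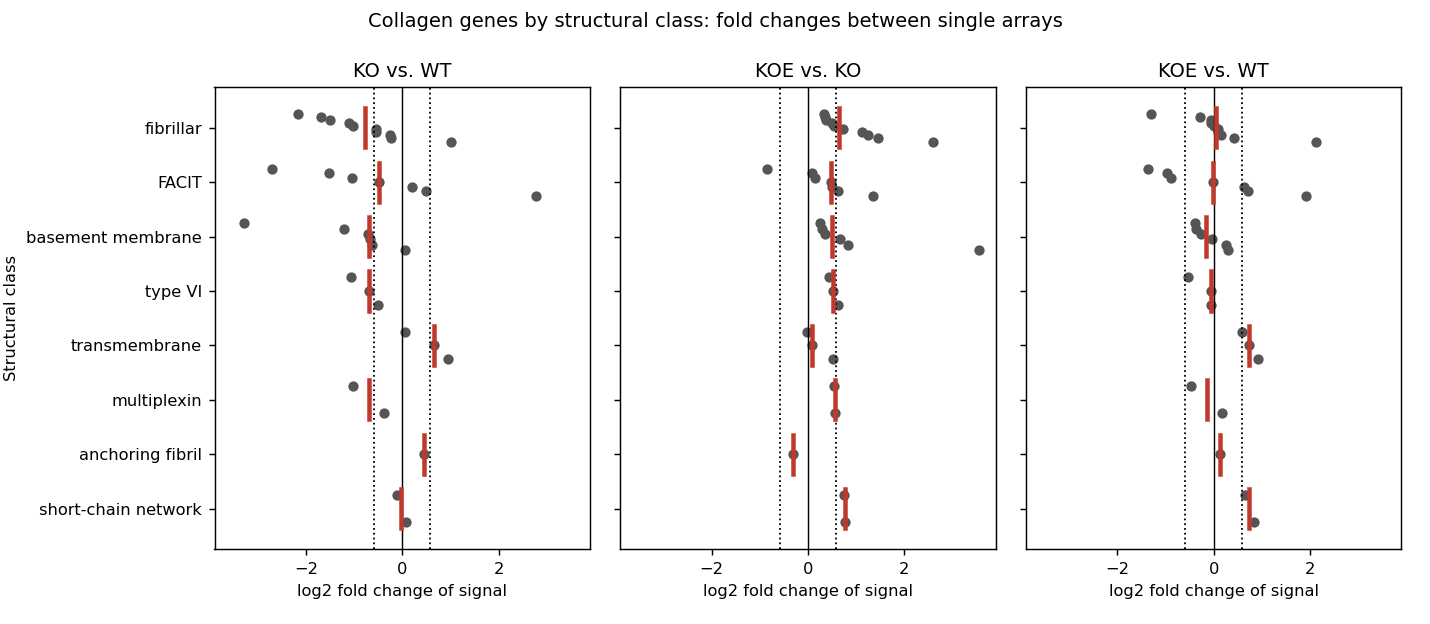
log2 fold change of each measured collagen gene (points) by structural class for KO against WT, KOE against KO and KOE against WT, with the class median as a red bar and dotted lines at a ratio of 1.5. The median was below 0 in KO against WT for the fibrillar, FACIT, basement membrane and type VI classes and 0.65 for the transmembrane class.

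The median of the fibrillar class, on the log2 scale, was -0.78 in KO against WT, with 4 of 10 genes lower and 0 higher. In KOE against KO it was 0.64, with 5 higher and 0 lower. The 5 include Col2a1 and Col11a2, which reached 40 in KOE alone. With 40 required in both arrays the KOE against KO median was 0.52 over 8 genes. KO was the lowest array for 9 of its 10 genes. Col1a1, the alpha-1 chain of type I collagen, read 16664 (WT), 5880.4 (KO) and 16038 (KOE). Its KO signal was 2.83-fold below WT and 2.73-fold below KOE, whereas the log2 fold change of KOE against WT was -0.06. By real-time RT-PCR the study also found Col1a1 higher with pESM, but short of statistical significance. Its partner chain Col1a2 read 30904 (WT), 26024 (KO) and 33069 (KOE) on its strongest probe set, short of the cut-off in each comparison. Col3a1, the chain of type III collagen, read 33961 in WT, 23146 in KO and 33914 in KOE, again with KO lowest and the differences short of the cut-off.

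The probe sets of these chains did not give the same size of difference. A second probe set for Col1a2 read 32974 in WT, 15513 in KO and 31846 in KOE, a log2 fold change of -1.09 in KO against WT. A weaker one read 987, 339 and 559.6, a log2 fold change of -1.54 in KO against WT. In KOE against KO they lay at 1.04 and 0.73, both past the cut-off. The weaker one was also lower past the cut-off in KOE against WT (-0.82). The second probe set for Col3a1 read 13032 in WT, 3185 in KO and 9446 in KOE, which is -2.03 in KO against WT and 1.57 in KOE against KO. The 2 probe sets for Col1a1 lay at -1.50 and -1.73 in KO against WT. All 7 probe sets of the 3 genes were thus lowest in KO, and the strongest of Col1a2 and of Col3a1 had the smallest difference of their gene. Those 2 read between 23146 and 33961, where the highest signal on any array was 42058. The second Col1a2 probe set also read in that range in WT (32974) and KOE (31846), and it was past the cut-off in both comparisons with KO. Whether the upper end of the signal range plays a part was not tested. With probe sets above 20000 left out, a choice made after seeing the data, the class median was -1.30 in KO against WT and 0.92 in KOE against KO. Col1a2 was then read from its weakest probe set (987, 339 and 559.6) and Col3a1 from its second.

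**Figure D3:**
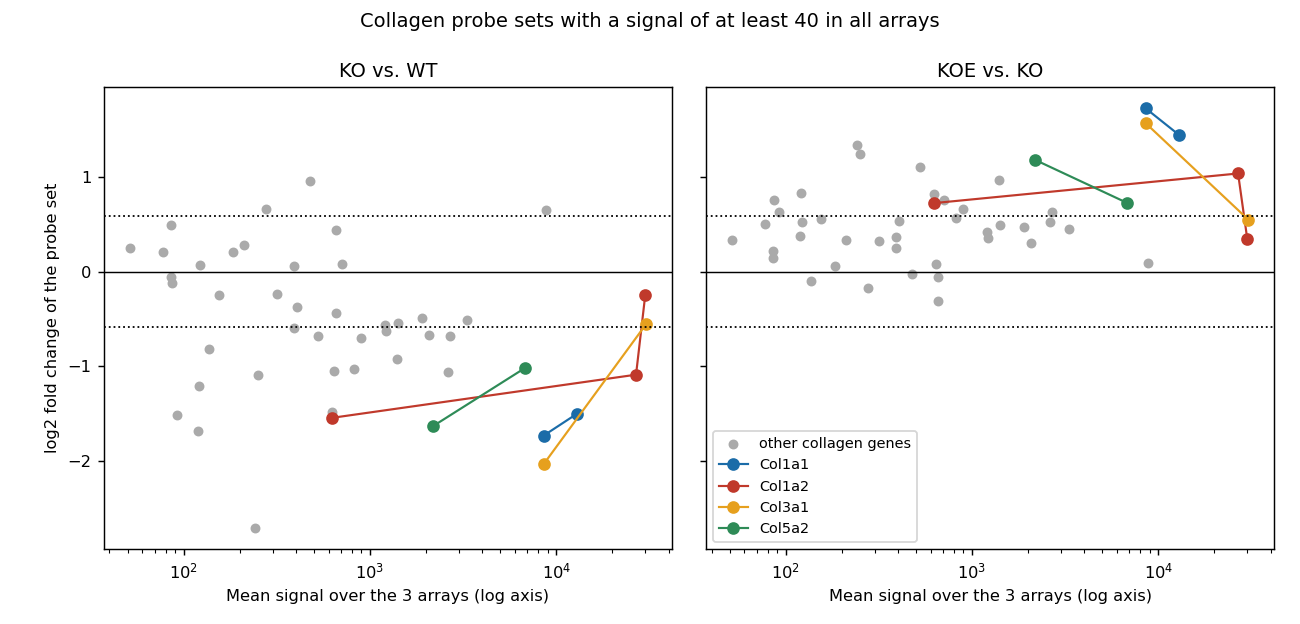
log2 fold change of the 48 collagen probe sets that reached 40 in every array against their mean signal (log axis), for KO against WT and KOE against KO, with lines joining the probe sets of 1 gene and dotted lines at a ratio of 1.5. The probe sets of Col1a2 run from -1.54 to -0.25 and those of Col3a1 from -2.03 to -0.55 in KO against WT, with the strongest nearest to 0.

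Type V collagen nucleates fibrils together with type I. Col5a2 read 8826 (WT), 4363 (KO) and 7220.0 (KOE), lower in KO past the cut-off (log2 fold change -1.02) and higher in KOE than in KO (0.73). Col5a3 had the same order of KO below the rest, with 291 in WT, 136 in KO and 321 in KOE. Col5a1 read 1594, 1097 and 1541, with KO lowest but short of the cut-off on this probe set and past it on its 2 other probe sets, at -0.93 and -0.68 in KO against WT. Col3a1 and Col5a2, which lie next to each other in the RefSeq annotation of GRCm38.p6 with no protein-coding gene between them, were both lowest in KO.

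The other fibrillar genes did not share 1 pattern. Col11a1, a chain of type XI collagen, read 208 (WT), 64.9 (KO) and 84.3 (KOE), so that both knockout arrays lay below WT past the cut-off. A second Col11a1 probe set read 153, 23.0 and 66.7, below WT in both as well, and was also past the cut-off in KOE against KO (log2 fold change 1.54, against 0.38 on the strongest). Col27a1 read 326, 277 and 348 and stayed short of the cut-off in every comparison. Col2a1, the chain of cartilage fibrils, was under 40 in WT (13.6) and KO (27.4) and read 59.6 in KOE. Col11a2 read 38.1 (WT), 8.53 (KO) and 51.4 (KOE), and thus was above 40 in KOE alone. Of the 9 cartilage markers, Matn1, Matn3, Hapln1, Cnmd and Epyc were under 40 in every array. Of the 4 others, Acan read 45.5, 34.7 and 56.2 and Comp read 83.7, 65.4 and 102, both higher past the cut-off in KOE against KO, while Snorc, at 22.3, 43.0 and 21.9, was lower. The part of cartilage genes in the Col2a1 and Col11a2 signals was not tested.

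The windows before the annotated start of Col1a2, Col3a1 and Col17a1 are shown because the first pair are main chains of dermal fibrils and were lowest in KO, while Col17a1, of the transmembrane class, differed in the other direction in KO. They are the 250 bases before the start in RefSeq on GRCm38.p6, at chr6:4505368-4505617 on the plus strand for Col1a2, chr1:45311288-45311537 on the plus strand for Col3a1 and chr19:47692043-47692292 on the minus strand for Col17a1. Each is written 5′ to 3′ in the direction of transcription, with the letters CCAAT or TATAAA on either strand in capitals (ATTGG is CCAAT on the other strand).
Col1a2: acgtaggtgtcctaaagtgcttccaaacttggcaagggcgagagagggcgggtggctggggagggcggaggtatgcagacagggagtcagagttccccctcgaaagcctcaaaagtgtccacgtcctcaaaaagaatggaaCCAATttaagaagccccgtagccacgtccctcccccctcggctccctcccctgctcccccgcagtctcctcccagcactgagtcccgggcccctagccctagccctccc
Col3a1: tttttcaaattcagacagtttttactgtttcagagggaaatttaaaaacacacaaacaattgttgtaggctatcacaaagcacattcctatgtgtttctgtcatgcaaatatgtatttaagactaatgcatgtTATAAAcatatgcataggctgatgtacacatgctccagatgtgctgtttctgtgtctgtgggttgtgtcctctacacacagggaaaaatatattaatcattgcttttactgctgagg
Col17a1: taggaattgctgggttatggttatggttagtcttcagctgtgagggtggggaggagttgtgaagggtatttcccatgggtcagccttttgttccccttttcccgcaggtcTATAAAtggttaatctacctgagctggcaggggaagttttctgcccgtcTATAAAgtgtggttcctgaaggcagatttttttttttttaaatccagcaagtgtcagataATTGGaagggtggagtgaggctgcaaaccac
Counted from the start, CCAAT began at base -109 for Col1a2, TATAAA at -117 for Col3a1, and TATAAA at -140 and -91 and ATTGG at -31 for Col17a1. Of 32851 windows of this length in the table, 33.8% hold CCAAT and 12.4% hold TATAAA on either strand. The 27 measured collagen genes with an entry have 30 windows. Of these windows 11 (36.7%) hold CCAAT and 4 (13.3%) hold TATAAA, near the shares over all windows. A match is a description of letters and not of a bound site.

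The FACIT class was mixed, with a median of -0.49 in KO against WT and of 0.47 in KOE against KO. In KO against WT 3 of 7 genes were lower (42.9%, beside 14.0% of all genes) and 1 higher (14.3%, beside 10.5%). In KOE against KO 2 were higher (28.6%, beside 10.6% of all genes) and 1 lower (14.3%, beside 5.18%). Col14a1, whose protein binds fibril surfaces in the dermis, read 471 (WT), 72.0 (KO) and 183 (KOE), with KOE between the other arrays and past the cut-off from both. A second Col14a1 probe set had the same order, with 225 in WT, 4.08 in KO and 102 in KOE. Col12a1, a related chain of dense connective tissue, read 971, 468 and 495, so that KO and KOE lay close together and both below WT. Its 2 weaker probe sets that exceeded 40 only in KOE went the other way, at 46.1 and 41.6 in KOE against 2.61 and 5.35 in WT.

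Col9a1 and Col19a1 are neighbours in the annotation and differed in opposite directions. Col9a1 read 146 (WT), 50.9 (KO) and 78.8 (KOE) on its strongest probe set, while a second one read 41.9, 49.7 and 62.6, so its direction in KO against WT depended on the probe set. Col19a1 was under 40 in WT (19.2) and read 131 in KO and 72.8 in KOE, the only collagen gene lower past the cut-off in KOE against KO. A second Col19a1 probe set kept that order, with 31.4, 103 and 62.8. Col16a1 read 2118, 1511 and 2091, short of the cut-off throughout. Col20a1 read 64.8, 91.2 and 101, and Col22a1 read 61.2, 70.5 and 100.1, each higher past the cut-off in KOE against WT alone.

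The type IV genes of the basement membrane had a median of -0.69 in KO against WT and of 0.51 in KOE against KO. In KO against WT 5 of 6 were lower (83.3%, beside 14.0% of all genes). In KOE against KO 3 were higher (50.0%, beside 10.6% of all genes). None was past the cut-off in KOE against WT, where 12.2% of all genes were higher and 10.3% lower. The log2 fold changes of the class there ran from -0.38 to 0.31. These genes lie in 3 neighbouring pairs. Col4a1 and Col4a2, the chains of the common network, read 2581 and 1476 in WT, 1621 and 957 in KO, and 1996 and 1228 in KOE. Their log2 fold changes in KO against WT were -0.67 and -0.62, and both calls were lost with the arrays at a common median. Col4a3 and Col4a4, minor chains known best from the kidney, had the largest differences of the class. Col4a3 read 67.3 (WT), 6.85 (KO) and 80.5 (KOE), and a second probe set read 63.9, 19.1 and 38.5. Col4a4 read 164 (WT), 71.1 (KO) and 127 (KOE), and a second probe set read 168, 16.5 and 176. The third pair split. Col4a5 read 1036, 637 and 1007, lower in KO past the cut-off but not with a common median, while Col4a6 read 357, 372 and 442 and stayed short of the cut-off in every comparison on its strongest probe set. A second Col4a6 probe set read 169.6, 206 and 259, past the cut-off in KOE against WT. The second probe sets of Col4a1 in KO against WT (-0.43) and of Col4a5 in KOE against KO (0.36) fell short of the cut-off that the strongest ones passed.

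The type VI genes had a median of -0.68 in KO against WT and of 0.53 in KOE against KO. KO was lowest for all 3 measured genes, whose protein chains assemble with one another. Col6a1 read 3132 (WT), 1949 (KO) and 3018 (KOE), past the cut-off in both comparisons with KO but not with a common median. Its neighbour Col6a2 read 3751, 2632 and 3587, with the same order but short of the cut-off. Col6a3 read 3625, 1737 and 2509, a log2 fold change of -1.06 in KO against WT that was kept under every other scaling. Col6a4 and Col6a5 were under 40 in every array.

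The transmembrane class differed in the other direction. WT was the lowest array for all 3 measured genes, the median was 0.65 in KO against WT and 0.74 in KOE against WT, and it was 0.09 in KOE against KO. Col17a1, the hemidesmosome collagen, read 6201 in WT, 9758 in KO and 10386 in KOE, 1.57-fold and 1.67-fold above WT in the knockout arrays. The first of these calls was lost with cyclic loess scaling. Col23a1, a collagen of epithelial membranes, read 296, 574 and 564, a log2 fold change of 0.95 in KO against WT. Its 2 other probe sets had log2 fold changes of 0.66 and 0.21 in that comparison. Col13a1, found at cell adhesion sites, read 103, 108 and 156, past the cut-off in KOE against WT alone. The difference between this class and the others was not tested, since each array stands for 1 pool and the class has 3 measured genes.

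The last classes hold 5 measured genes. Of the multiplexins, which attach to basement membranes, Col18a1, the source of endostatin, read 1115 (WT), 547 (KO) and 810.2 (KOE), lower in KO past the cut-off. A second Col18a1 probe set read 948, 339 and 596 and passed the cut-off in all 3 comparisons. Col15a1 read 419.6, 324 and 472, with KO lowest but short of the cut-off. Col7a1, the anchoring fibril collagen below the epidermis, read 569, 773 and 625, with KO highest and no difference past the cut-off. The short-chain collagens of type VIII, known from vessel walls and from the cornea, were higher in KOE than in both other arrays. Col8a2 read 552, 584 and 988, and Col8a1 read 74.8, 69.0 and 117, while a second Col8a1 probe set read 83.3, 79.9 and 93.1. With Col7a1, Col15a1 and Col18a1 counted among the basement membrane genes, the median of that class was -0.67 in KO against WT over 9 genes.

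The 8 genes under 40 in every array were Col24a1, Col9a2, Col9a3, Col6a4, Col6a5, Col25a1, Col10a1 and Col26a1. Their signals ran from 2.78 to 36.4, and no difference is read from them. Over all collagen probe sets that reached 40 in every array, 24 of 48 were lower past the cut-off in KO against WT and 3 higher. In KOE against KO 18 were higher and 0 lower. The shares over all probe sets of the arrays were not counted, so these counts have no background beside them. Of the 15 genes with several such probe sets, the probe sets pointed the same way for 14 in KO against WT and for 12 in KOE against KO, and they gave the same call for 9 and 8. The range between the probe sets of a gene had a median of 0.24 and a maximum of 1.76 on the log2 scale in KO against WT.

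Of the 26 measured genes that modify, fold, cut and crosslink collagen, 7 were lower and 2 higher past the cut-off in KO against WT (26.9% and 7.69%, beside 14.0% and 10.5% of all genes), with a median log2 fold change of -0.10. In KOE against KO 3 were higher and 1 lower (11.5% and 3.85%, near the 10.6% and 5.18% of all genes), with a median of 0.14. Serpinh1, the collagen chaperone Hsp47, read 10316 (WT), 6699 (KO) and 8391 (KOE), lower in KO past the cut-off. Lox, which starts crosslinking between chains, read 3577, 1721 and 2905, past the cut-off in both comparisons with KO. Plod2, which hydroxylates lysines used for crosslinks, read 160.5, 18.0 and 64.0, the largest difference of the list in KO against WT. P4ha2, a subunit of prolyl hydroxylase, read 1260 in WT, 670 in KO and 1122 in KOE. Its partner P4hb read 9803, 9879 and 9692, and the folding enzyme Ppib read 10885, 11235 and 10413, so that neither reached the cut-off. Pcolce2, an enhancer of procollagen cleavage, read 6913, 8552 and 8390.1. Tll1, a procollagen proteinase, was under 40 in WT (29.5) and read 84.4 in KO and 58.9 in KOE. Colgalt2, which adds galactose to collagen, read 56.7, 49.1 and 8.75, the one gene of the list lower past the cut-off in KOE against KO.

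Of 9 measured collagen receptors, 1 was lower and 0 higher past the cut-off in KO against WT (11.1% lower, beside 14.0% of all genes). In KOE against KO 1 was higher and 1 lower (11.1% each, beside 10.6% and 5.18% of all genes). With 9 genes, 1 gene makes up the whole of each share. Mrc2, a receptor that takes up collagen fragments, read 676 in WT, 343 in KO and 579 in KOE. The integrin subunit Itga2 read 87.4, 92.1 and 59.2, and Itga10 read 35.8, 48.1 and 38.3. The kinases Ddr1 and Ddr2, which bind collagen, read 5709, 6626 and 8734, and 1929, 1658 and 1790.0, while Itgb1, the common beta subunit, read 2558, 2352 and 2322.

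Markers of cell types in skin also differed between the arrays. In bulk skin, fewer cells of a type and less RNA per cell cannot be told apart. The dermal fibroblast list, the main source of fibrillar collagen, summed to 88579 (WT), 85724 (KO) and 84268 (KOE). In KO against WT 2 of its 14 genes were lower (14.3%, near the 14.0% of all genes). In KOE against KO 0 were past the cut-off, where 10.6% of all genes were higher and 5.18% lower. The strongest genes of the list, Dcn and Lum, read 32742, 32111 and 30539, and 22084, 19751 and 17475. The skeletal muscle list summed to 38564, 14299 and 54199. In KO against WT 15 of its 18 genes were lower (83.3%, beside 14.0% of all genes), while 2, Myh2 and Des, were higher. In KOE against KO 16 were higher (88.9%, beside 10.6% of all) and 0 lower. Most of the list thus moved with the collagen genes in both comparisons. The strongest genes of the list were Acta1 at 5093, 2497 and 9799, and Tnnc2 at 4947, 1259 and 6291. The adipocyte list summed to 20660 (WT), 7244 (KO) and 13638 (KOE). In KO against WT 6 of its 9 genes were lower (66.7%, beside 14.0% of all genes). In KOE against KO 6 were higher (66.7%, beside 10.6% of all). Of the adipocyte genes, Fabp4 read 15268, 4731 and 9406 and Adipoq 2194, 296 and 1289, while Lep was under 40 in KO alone. The part of muscle and fat in the collagen differences was not tested.

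Hair genes separated WT from both knockout arrays. The hair shaft and inner root sheath list summed to 195990 (WT), 3385 (KO) and 2512 (KOE). In KO against WT 16 of its 17 genes were lower (94.1%, beside 14.0% of all genes). Krt25 and Tchh read 31928 and 24309 in WT, 51.5 and 279 in KO, and 21.4 and 278 in KOE. The markers under 40 in KO were Krt34, Krt35 and Krt86, and 8 of the 17 were under 40 in KOE. On their strongest probe sets Col11a1, Col9a1, Col12a1 and Col14a1 were below WT in both knockout arrays, as that list was. Weaker probe sets of Col9a1 and Col12a1 did not keep this order. In KOE against KO 6 of the 17 hair genes were lower (35.3%, beside 5.18% of all genes) and 0 higher, while Col9a1 and Col14a1 were higher past the cut-off. The part of the hair genes in these collagen differences was not tested.

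The basal keratinocyte list, whose cells make Col17a1, summed to 85942 (WT), 110380.4 (KO) and 107794 (KOE). In KO against WT 4 of its 9 genes were higher (44.4%, beside 10.5% of all genes). In KOE against KO 0 were past the cut-off, where 10.6% of all genes were higher and 5.18% lower. Krt15 and Krt5 read 25180 and 19214 in WT, 30938 and 23513 in KO, and 31032 and 24499 in KOE. The list thus went with Col17a1 and Col23a1, whereas Col13a1 was near WT in KO (log2 fold change 0.07). The blood endothelium and Schwann cell lists were also higher in both knockout arrays than in WT. The part of the keratinocyte genes in the transmembrane differences was not tested. The blood endothelium list summed to 3879, 5414 and 6035. Of its 12 genes 3 were higher in KO against WT (25.0%, beside 10.5% of all genes) and 0 lower (beside 14.0%). Its strongest genes Esam and Pecam1 read 641 and 466 in WT, 899.7 and 674 in KO, and 962 and 732 in KOE. Both were short of the cut-off in KO against WT. Col4a1, Col4a2 and Col18a1, which vessel walls also make, were lower in KO. The part of the blood endothelium genes in the collagen differences was not tested. The Schwann cell list summed to 13383, 18101 and 18885, led by Pmp22 at 5343, 6113 and 6993 and by Mbp at 2556, 4635 and 5325. Of its 7 genes 2 were higher in KO against WT (28.6%, beside 10.5% of all genes). The cartilage list had 4 measured genes, which summed to 1499, 1116 and 1597 without the 5 under 40. In KO against WT 1 was higher and 0 lower (median -0.37 on the log2 scale), beside 10.5% and 14.0% of all genes. In KOE against KO 2 were higher and 1 lower, beside 10.6% and 5.18% of all, with a median of 0.59. With 4 genes, 1 gene makes up 25.0% of the list. Sox9, its strongest gene, read 1348, 973 and 1416.

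**Figure D4:**
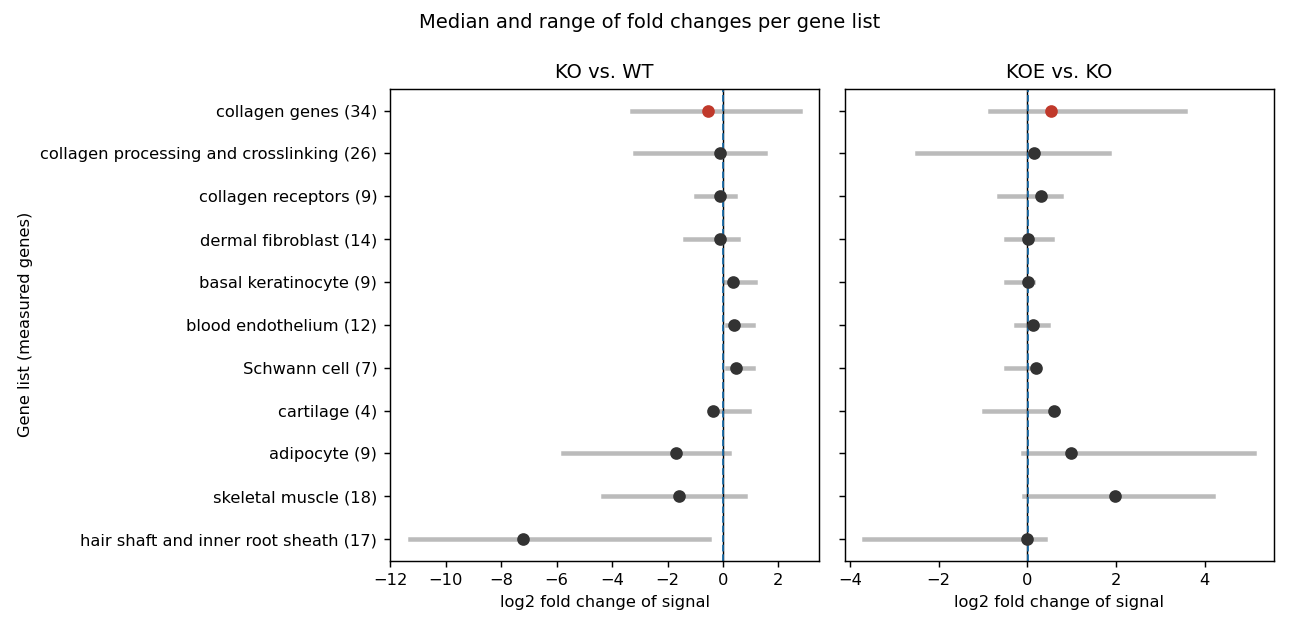
Median (point) and range (grey line) of the log2 fold changes of each gene list, with its number of measured genes, for KO against WT and KOE against KO, with the all-gene median as a dashed line and a separate horizontal scale in each panel. The collagen medians of -0.55 and 0.53 lie between the near-0 medians of the dermal fibroblast list and the larger ones of the skeletal muscle and adipocyte lists.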

How the data were processed

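Back-skin RNA (250 ng, pooled per group) was hybridised to 3 Affymetrix mouse expression arrays. The deposited values are linear intensities per probe set, made by the authors with the MAS5 algorithm, and each array has a trimmed mean (2% off each end) of 500. The number of mice per pool was not given. No values of the authors' own comparisons were used.

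Gene names came from the platform annotation, and symbols were updated through gene identifiers: 34945 had 1 gene, 932 several and 9160 none, besides 64 control probe sets, and only those with 1 gene were used. The strongest probe set by mean signal stood for a gene. Ratios were taken on the log2 scale without a pseudocount. The cut-off (a ratio of at least 1.5, and 40 in at least 1 of the 2 arrays) follows the study's methods, except that in which array 40 must be met was chosen here. With 1 array per group no test was possible, and the number of arrays limits the precision. All collagen genes were named. For the other lists the 2 strongest genes (4 for processing and receptor genes) and those with the largest differences were named. Lox, P4ha2, Mrc2, Lep, Acan, Snorc, Myh2, Des and the genes under 40 were also named, after their values were seen. Members, classes and lists were chosen with earlier results of these data known.

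Alternatives were other signal limits (40 in both arrays, 100, none, a floor of 40, 40 added to every signal), scaling (a common median, quantile, cyclic loess in limma 3.58.1 with R 4.3.3), mean probe sets, no cross-hybridizing probe sets, a fold of 2 and a wider basement membrane class. Promoter windows came from RefSeq (GRCm38.p6), and protein sequences were not used here. Python 3.11.15 with pandas 2.3.3 was used, and the scripts were tested on simulated data.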

Additional observations from a re-analysis of the deposited data

How the results depend on the processing

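No paired analysis was possible because each group has 1 array. Under the alternatives run, the collagen median stayed between -0.65 and -0.27 in KO against WT and between 0.37 and 0.66 in KOE against KO, and the fibrillar, FACIT, basement membrane and type VI medians also kept their direction in both comparisons. In KOE against WT, where the medians lie near 0, the collagen median of 0.05 became -0.019 with 40 required in both arrays, -0.019 with a limit of 100, -0.036 with quantile scaling, -0.068 with cyclic loess, -0.025 with the mean of all probe sets and -0.030 without probe sets above 20000, and the fibrillar median of 0.05 became -0.025, -0.025, -0.021 and -0.084 under the first 4 and -0.052 under the last. With a common median the FACIT median in KOE against WT became 0.091, the type VI median 0.046 and the transmembrane median in KOE against KO -0.070, as the all-gene medians moved by construction. With the mean of probe sets reaching 40, the FACIT median in KOE against WT was 0.63, and with 40 required in both arrays it was -0.45, from -0.019. Col12a1 in KOE against WT turned to 1.30 with the mean of all probe sets and to 1.30 with those reaching 40, which adds probe sets above 40 in KOE alone. The fibrillar median in KO against WT was -1.19 with the mean of probe sets reaching 40 and -1.30 without those above 20000, and in KOE against KO it was 1.01 with the mean of all, 1.01 with those reaching 40 and 0.92 without those above 20000. The cause was not tested.

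Counts moved as follows. Genes higher in KO against WT numbered 6 with no signal limit, 6 with a common median, 5 with quantile scaling and 1 at a fold of 2. Genes lower in KOE against KO numbered 4 with no limit, 2 with a common median, 2 with quantile scaling, 0 with the mean of all probe sets and 0 at a fold of 2, where those higher numbered 6. Genes lower in KOE against WT numbered 7 with no limit and 2 with each mean of probe sets and at a fold of 2, and those higher numbered 5 with 40 added and 2 at a fold of 2. The 15 genes lower in KO against WT kept their call under all 12 planned settings for 8, the 13 higher in KOE against KO for 2, Col1a1 and Col5a3, and the 4 lower in KOE against WT for 2. None of the 3 higher in KO against WT, of the 9 higher in KOE against WT or the 1 lower in KOE against KO did, since each lost its call in at least 1 setting. Col17a1 lost it in KO against WT with cyclic loess and at a fold of 2, and Col23a1 at a fold of 2 alone. Col2a1, Col4a3, Col11a2 and Col19a1 had a signal under 40 in at least 1 array, so the size of their differences rests on weak signals.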
